A study of Mus musculus with 2 samples.

Results

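Splicing factor transcripts were compared between 2 poly(A) RNA libraries from thigh skeletal muscle of 26-month-old B6C3F1 mice. B6C3F1 is a hybrid laboratory strain. One library came from mice on calorie restriction (CR), which ate about 40% fewer calories for 25 months on a diet enriched to keep protein, vitamin and mineral intake, relative to body weight, close to that of the controls. The other came from mice of the same age and strain on the control diet. Each group has 1 library, so no difference below has a replicate check and no test or p-value is given, and the sources used here do not say whether a library pools mice.

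The splicing factors are the genes whose symbol begins with Snrp, Sf3a, Sf3b, Srsf, Sfrs, Hnrnp, Prpf, Lsm followed by a digit, U2af, Mbnl, Celf or Cugbp. They were 77 of the 10543 genes with a single symbol in the table, and no symbol begins with Cugbp. By name, 45 were placed with the core spliceosome (Snrp, Sf3a, Sf3b, U2af, Lsm and Prpf) and 32 with the regulatory factors (Srsf or Sfrs, Hnrnp, Mbnl and Celf). All 77 were above 0 in both libraries and averaged at least 1 FPKM, and 73 averaged at least 100 FPKM. FPKM, fragments scaled to transcript length and to the mapped fragments of the library, is a level per length. A log2 ratio sets CR against control, as the difference of log2(FPKM + 1), and a fold is the same ratio on the linear scale, which understates the difference of genes with low values.

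The spliceosome removes introns from nuclear transcripts. Small nuclear RNAs, each held by a ring of Sm or LSm proteins, assemble with the SF3, U2AF and PRPF proteins on the splice sites and branch point and rearrange to catalyse the reaction. SR proteins (Srsf) and hnRNPs bind the transcript around exons and tend to promote or block the use of a splice site. MBNL and CELF proteins set the switch from fetal to adult isoforms in skeletal muscle and heart, and loss of free MBNL onto expanded CUG repeats is the central defect of myotonic dystrophy.

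Splicing factor transcripts as a group stood at nearly the same level in both libraries. The 5 members past 2-fold all belonged to the core spliceosome, whose share past 2-fold was not above that of all genes. Of the 77 members, 2 stood higher in the CR library by 2-fold or more (Snrpd1 and Prpf38a), 3 stood lower by as much (Sf3a2, Lsm2 and U2af1) and 72 lay within 2-fold. That is 6.49% of members past 2-fold, against 18.7% of the 10533 genes averaging 1 FPKM or more, of which 8.01% were higher and 10.7% lower. Among the 7886 genes averaging 100 FPKM or more the share past 2-fold was 10.2%, with 4.95% higher and 5.29% lower, and of the 73 members at that level 3 were past 2-fold. The core share was 11.1% of 45 members, and 7.32% of the 41 core members averaging 100 FPKM or more. The median log2 ratio was 0.02 over the members and -0.03 over all genes averaging 1 FPKM or more. In bulk tissue such as this, fewer cells of a type and less RNA per cell cannot be told apart. Summed levels were 48872 FPKM in the CR library and 46962 FPKM in the control library.

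The core and regulatory members had nearly the same median, and differed in spread. The median log2 ratio was -0.02 for the 45 core members and 0.03 for the 32 regulatory members, a difference of -0.06. The core members summed to 19908 FPKM in the CR library and 20268 FPKM in the control library, a ratio of 0.98. The regulatory members summed to 28963 FPKM in the CR library and 26694 FPKM in the control library, a ratio of 1.09. The same ratio was 1.04 over all members and 1.14 over all genes averaging 1 FPKM or more. Log2 ratios ran between -1.38 and 2.77 among core members (SD 0.70 across genes) and between -0.52 and 0.93 among regulatory members (SD 0.33 across genes). Without Snrpd1, the highest, the core SD was 0.57. A strict core of 33 members left out the LSm proteins that work outside the spliceosome and some PRPF proteins, Prpf38a among them. It had a median log2 ratio of -0.03, an SD of 0.75 and a ratio of summed levels of 0.93. Of these 33, 12.1% were past 2-fold. At a lower threshold of 1.5-fold, chosen after the values were seen, 11 core members (24.4%) and 2 regulatory members (6.25%) were past it, against 26.9% of genes averaging 100 FPKM or more (13.4% higher, 13.5% lower) and 35.2% of those averaging 1 FPKM or more (16.4% higher, 18.8% lower). The core members past 1.5-fold were 5 higher and 6 lower, and both regulatory ones were higher. The classes also differed in level. The median core member stood at 368 FPKM in the CR library and 340 FPKM in the control library. For regulatory members the medians were 553 FPKM in the CR library and 585 FPKM in the control library. All 32 regulatory members averaged 100 FPKM or more, against 41 of the 45 core members. The difference in spread and the part of level in it were not tested, since genes are not replicates.

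**Figure D1:**
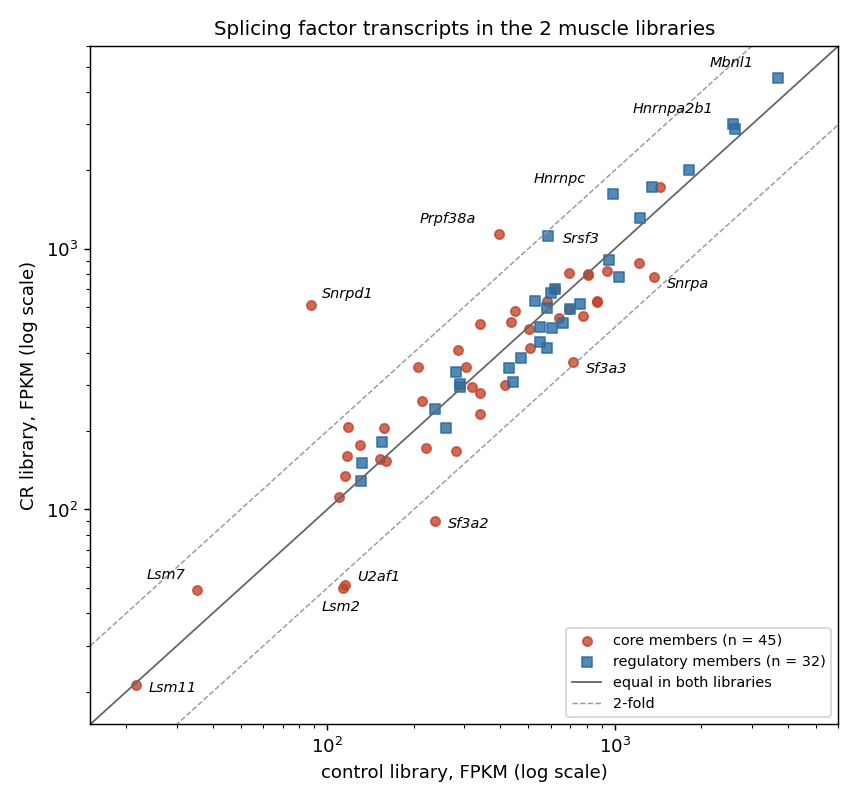
FPKM of the 77 splicing factors in the CR library (vertical, log scale) against the control library (horizontal, log scale), with core members as circles and regulatory members as squares. The solid line marks equal levels and the dashed lines 2-fold. Snrpd1 (606 FPKM in CR, 88.1 FPKM in control) and Prpf38a lie above the upper dashed line, Sf3a2, Lsm2 and U2af1 lie below the lower one, and all 32 squares lie between the lines.

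The Sm proteins form the ring of 7 subunits around the U1, U2, U4 and U5 small nuclear RNAs. Snrpd1, which encodes the ring subunit SmD1 (chromosome 18, 10617794 to 10628228 on mm9), stood at 606 FPKM in the CR library, against 88.1 FPKM in the control library, a fold of 6.82 and a log2 ratio of 2.77. It was the highest ratio of any member, and by level Snrpd1 ranked 27 of 77 in the CR library, against 75 in the control library. The other 6 ring subunits lay within 2-fold. Snrpd2 stood at 1734 FPKM in the CR library, against 1438 FPKM in the control library, and Snrpd3 at 353 FPKM in the CR library, against 303 FPKM in the control library. Snrpf (log2 ratio 0.45) and Snrpg (0.27) were on the same side, while Snrpb (-0.03) and Snrpe (-0.24) were on the other. Subunits that occupy the same ring in equal number thus had log2 ratios spread over 3.01. The Snrpn paralog of Snrpb shares a merged locus with Snurf, which stood at 961 FPKM in the CR library and 1272 FPKM in the control library. Several Snrp genes have processed copies elsewhere in the mouse genome, and the authors' counting could split reads among them, so these values are uncertain.

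U1 recognises the 5′ splice site and U2 the branch point. Snrpa, which binds a stem loop of U1, stood at 782 FPKM in the CR library, against 1369 FPKM in the control library, 1.75-fold lower, and Snrpc, which steadies U1 on the splice site, at 173 FPKM in the CR library, against 221 FPKM in the control library. Snrpa1, a protein of the U2 particle, stood at 208 FPKM in the CR library, against 118 FPKM in the control library, 1.75-fold higher, while its partner on U2, Snrpb2, was close to equal at 156 FPKM in CR and 153 FPKM in control muscle. The U1 proteins were thus both lower in the CR library, and the U2 proteins were at or above the control level, all within 2-fold.

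The SF3a complex joins U2 to the branch point and has 3 subunits, which did not lie together. Sf3a2 (chromosome 10, 80261421 to 80267667 on mm9) stood at 90.4 FPKM in the CR library, against 237 FPKM in the control library, 2.60-fold lower and the lowest ratio of any member. Sf3a3 stood at 368 FPKM in the CR library, against 715 FPKM in the control library, just within 2-fold (1.94-fold lower). Sf3a1 lay on the other side, at 407 FPKM in the CR library, against 286 FPKM in the control library. The partner complex SF3b, which holds the branch point adenosine, was tighter: its 5 listed subunits had log2 ratios from -0.46 for Sf3b2 to 0.02 for Sf3b4. Sf3b1, its largest subunit and a gene often mutated in myelodysplasia, was nearly equal at 491 FPKM in CR and 505 FPKM in control muscle. Sf3a2 is overlapped by 3 unnamed minus-strand loci, and with a kit that leaves strand unmarked its reads cannot be told apart from theirs. The longest of these stood at 9.78 FPKM in the CR library and 152 FPKM in the control library, lower in the same library as Sf3a2, and another at 85.5 FPKM in the CR library and 3.41 FPKM in the control library, on the other side.

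U2AF reads the 3′ splice site as a pair of subunits, the smaller at the AG and the larger on the pyrimidine tract. Both transcripts were lower in the CR library. U2af1, the small subunit (chromosome 17, 31784027 to 31795699 on mm9), stood at 51.4 FPKM in the CR library, against 115 FPKM in the control library, 2.21-fold lower. U2af2, the large subunit, stood at 878 FPKM in the CR library, against 1217 FPKM in the control library, 1.39-fold lower. Of 3 unnamed loci that overlap U2af1, the minus-strand pair was listed at 0 in the CR library, and at 17.4 FPKM and 36.7 FPKM in the control library. The locus with no strand stood at 33.1 FPKM in the CR library and 10.9 FPKM in the control library. The merged locus of the U2af1 paralog U2af1l4 with Tmem149 was on the other side, at 252 FPKM in the CR library and 151 FPKM in the control library.

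LSm proteins 2 to 8 form the ring around U6, the small nuclear RNA at the catalytic centre, and 5 of these subunits were listed under a single symbol. Lsm2 (chromosome 17, 35118805 to 35122838 on mm9) stood at 49.98 FPKM in the CR library, against 113 FPKM in the control library, 2.24-fold lower. Lsm3 lay on the other side, at 353 FPKM in the CR library, against 206 FPKM in the control library. Lsm4 (-0.46 on the log2 scale) and Lsm6 (-0.47) were lower and Lsm7 (0.47) higher, so the ring again held subunits on both sides of 0. The LSm proteins that work outside the spliceosome stood closer together, with log2 ratios from -0.24 to 0.35 in 6 genes. Lsm12 had the highest mean of the Lsm members, at 808 FPKM in CR and 692 FPKM in control muscle, close to the means of Lsm4 and Lsm6, which stood above it in the control library at 867 FPKM and 869 FPKM. Among the others, Lsm1, which replaces Lsm8 in the cytoplasmic ring that promotes decapping, stood at 153 FPKM in CR and 161 FPKM in control muscle, and Lsm11, a part of the U7 particle for histone transcripts, had the lowest level of all members at 21.2 FPKM in CR and 21.6 FPKM in control muscle.

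The PRPF proteins include the scaffold of the catalytic centre and the subunits that join U4, U6 and U5 into the tri-snRNP. Prpf38a, which joins the spliceosome before its catalytic activation (chromosome 4, 108237472 to 108251941 on mm9), stood at 1141 FPKM in the CR library, against 397 FPKM in the control library, a fold of 2.87. Its paralog Prpf38b was within 2-fold, at 177 FPKM in the CR library, against 129.7 FPKM in the control library. The 5 tri-snRNP proteins were split. Prpf3 (0.59 on the log2 scale), Prpf4 (0.38) and Prpf31 (0.28), which sit on U4 and U6, were higher in the CR library. Prpf8 (-0.49), the catalytic scaffold, and Prpf6 (-0.29), a bridge to U5, were lower. Of the counterparts of yeast U1-associated proteins, Prpf39 was 1.68-fold lower and Prpf40b 1.47-fold lower. The ubiquitin ligase Prpf19 (0.12), the second-step factor Prpf18 (-0.02) and the kinase Prpf4b (-0.20) lay near 0.

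**Figure D2:**
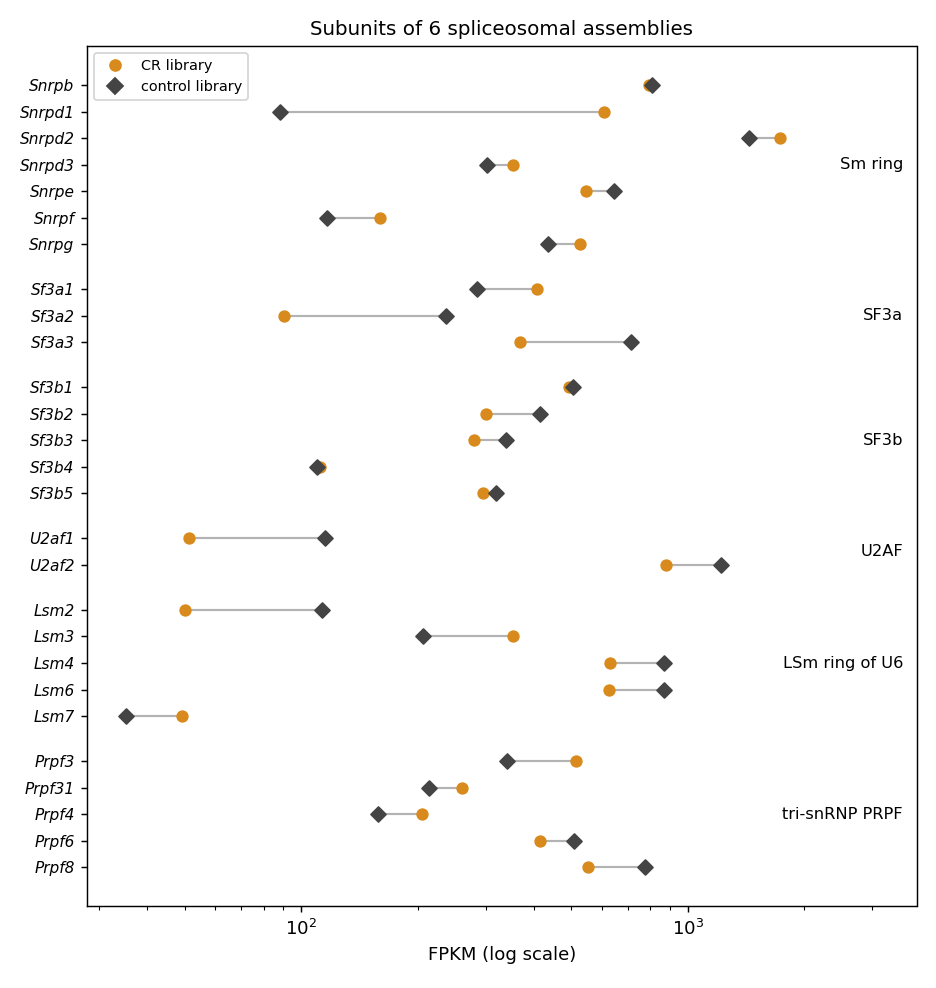
FPKM (log scale) of each listed subunit of 6 spliceosomal assemblies, with the CR library as circles and the control library as diamonds joined by a line. The longest line is that of Snrpd1 in the Sm ring, the LSm ring and SF3a hold lines that run in both directions, and both U2AF subunits were lower in the CR library.

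SR proteins bind exonic enhancers and recruit U1 and U2AF. None of the 12 Srsf and Sfrs members was past 2-fold, and their median log2 ratio was 0.05. Srsf3, the smallest SR protein, came nearest, at 1122 FPKM in the CR library, against 588 FPKM in the control library, a fold of 1.91. The next highest in this family, Srsf4, had a log2 ratio of 0.23. Srsf5 was the most abundant of the family, at 2893 FPKM in CR and 2612 FPKM in control muscle, followed by Srsf2 at 1311 FPKM in CR and 1225 FPKM in control muscle. Srsf1, the prototype SR protein, was close to equal at 904 FPKM in CR and 958 FPKM in control muscle. Srsf7, which is close to Srsf3 in its RNA-binding domain, lay on the other side at 205 FPKM in CR and 258 FPKM in control muscle. The lowest ratio carried the name Srsf12, at 309 FPKM in the CR library, against 443 FPKM in the control library. Its locus is on chromosome 13, where RefSeq (GRCm38.p6) lists Srek1 with Srsf12 as a synonym, while the current Srsf12 is on chromosome 4, so this value is taken as that of Srek1, a regulatory SR-related protein. Sfrs18 is the older name of Pnisr in the same source and stood at 500.1 FPKM in CR and 551 FPKM in control muscle.

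The hnRNPs coat nascent transcripts and often silence exons. All 16 lay within 2-fold, and their median log2 ratio was -0.14. Hnrnpc, which binds uridine tracts and keeps U2AF from cryptic 3′ splice sites, had the highest ratio, at 1619 FPKM in the CR library, against 984 FPKM in the control library. Hnrnpa2b1 was the most abundant, at 3021 FPKM in CR and 2585 FPKM in control muscle, and Hnrnpk the next, at 1997 FPKM in CR and 1816 FPKM in control muscle. The lower side held Hnrnph3 (-0.48 on the log2 scale), Hnrnpl (-0.41) and Hnrnpul1 (-0.35), while the paralogs Hnrnph1 (0.18) and Hnrnph2 (0.26) of Hnrnph3 were on the higher side. In all, 9 of the 16 were below 0 and 7 above it. Hnrnpa1 and Hnrnpa3 lie in loci merged with the predicted genes Gm5643 and Gm6793 and were not counted as members. The merged Hnrnpa1 locus stood at 638 FPKM in the CR library and 790.2 FPKM in the control library, and that of Hnrnpa3 at 169 FPKM in the CR library and 143 FPKM in the control library.

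The MBNL and CELF families, the regulators with the best known role in muscle, were each slightly higher in the CR library and well within 2-fold. Mbnl1 (chromosome 3, 60305123 to 60433670 on mm9) was the most abundant of all 77 members in both libraries, at 4536 FPKM in the CR library, against 3692 FPKM in the control library, a fold of 1.23. Mbnl2 stood at 1727 FPKM in the CR library, against 1346 FPKM in the control library, a fold of 1.28. Celf1, whose protein acts against MBNL on many muscle exons, stood at 699.7 FPKM in the CR library, against 617 FPKM in the control library, a fold of 1.13, and Celf2 at 630.4 FPKM in the CR library, against 529 FPKM in the control library, a fold of 1.19. Both pairs stood higher by similar ratios, and Mbnl1 and Mbnl2 together summed to 6263 FPKM in the CR library and 5038 FPKM in the control library, against 1330.1 FPKM in the CR library and 1146 FPKM in the control library for Celf1 and Celf2. The ratio of summed MBNL to summed CELF level was 4.71 in the CR library and 4.40 in the control library. Mbnl3, Celf3, Celf4, Celf5 and Celf6 were not listed under these symbols, alone or in a merged locus.

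**Figure D3:**
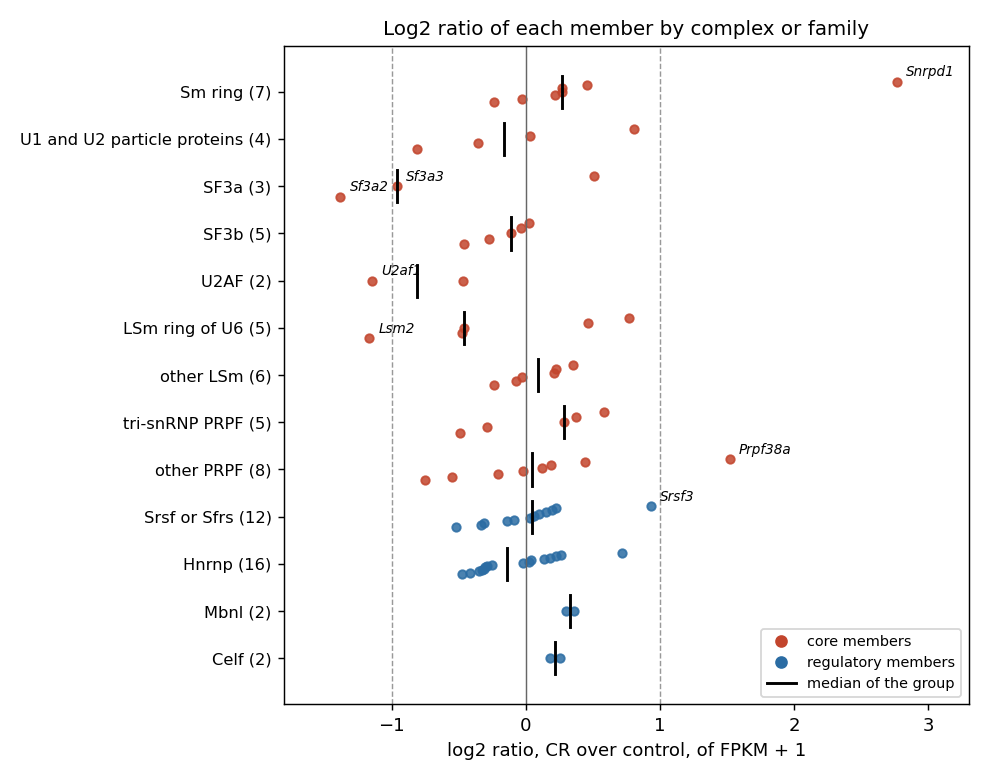
Log2 ratio (CR over control, FPKM + 1) of each of the 77 members by complex or family, with the number of members in brackets, core members in red, regulatory members in blue and a black bar at the median of each group. Dashed lines mark 2-fold. All points past the dashed lines are red, and the MBNL and CELF points lie between 0.18 and 0.36.

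Promoters of 4 of the 5 members past 2-fold, from RefSeq (GRCm38.p6), are shown here to let the sequences of genes that stood apart be compared. Each is the 250 bases before the most upstream annotated start, 5′ to 3′ on the gene's strand. Capitals mark matches, on either strand, to CGGAAG (the core of ETS factor sites), to the CCAAT box, to the GC box GGGCGG (bound by Sp1), and to the TATA box, searched as TATAAA.

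Prpf38a, chr4:108579337-108579586, minus strand: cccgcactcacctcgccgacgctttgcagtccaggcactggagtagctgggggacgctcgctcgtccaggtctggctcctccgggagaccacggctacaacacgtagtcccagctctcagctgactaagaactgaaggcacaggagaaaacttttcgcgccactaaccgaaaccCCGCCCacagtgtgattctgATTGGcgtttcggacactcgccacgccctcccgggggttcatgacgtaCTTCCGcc
Sf3a2, chr10:80798485-80798734, plus strand: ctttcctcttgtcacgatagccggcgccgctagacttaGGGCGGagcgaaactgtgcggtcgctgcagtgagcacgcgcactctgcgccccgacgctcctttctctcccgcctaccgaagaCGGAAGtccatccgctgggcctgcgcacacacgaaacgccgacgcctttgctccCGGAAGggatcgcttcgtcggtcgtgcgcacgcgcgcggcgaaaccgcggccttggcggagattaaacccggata
Lsm2, chr17:34981604-34981853, plus strand: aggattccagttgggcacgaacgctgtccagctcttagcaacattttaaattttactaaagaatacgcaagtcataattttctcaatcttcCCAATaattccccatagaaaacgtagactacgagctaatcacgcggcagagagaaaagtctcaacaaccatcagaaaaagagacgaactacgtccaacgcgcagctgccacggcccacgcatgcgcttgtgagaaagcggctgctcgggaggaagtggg
U2af1, chr17:31658765-31659014, minus strand: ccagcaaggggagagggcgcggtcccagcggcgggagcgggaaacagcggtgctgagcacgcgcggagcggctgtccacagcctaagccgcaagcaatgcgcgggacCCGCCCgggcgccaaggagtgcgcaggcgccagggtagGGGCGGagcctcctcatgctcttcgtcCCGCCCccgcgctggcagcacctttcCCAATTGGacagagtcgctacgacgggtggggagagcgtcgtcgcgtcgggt

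The Prpf38a sequence, from a member that stood higher in the CR library, holds 1 CGGAAG match, 1 CCAAT box and 1 GC box. No sequence is shown for Snrpd1, the other member at least 2-fold higher. Of the members that stood lower, Sf3a2 holds 2 CGGAAG and 1 GGGCGG, Lsm2 holds 1 CCAAT, and U2af1 holds 3 GGGCGG and a CCAATTGG run, which reads as CCAAT on both strands and counts as 2 overlapping matches. None of the 4 sequences holds TATAAA, and no motif was common to the 3 lower genes. Promoter entries were found for 65 of the 77 members. CGGAAG occurred in 31 of these 65 (47.7%), in 20 of 35 core promoters (57.1%) and in 11 of 30 regulatory promoters (36.7%), against 25.9% of 8354 promoters of genes listed in the table and 13.8% of all 27025 promoters. CCAAT occurred in 46.2% of members' promoters and 35.9% of those of listed genes. GGGCGG occurred in 61.5% of members' promoters and 61.3% of those of listed genes, and was less frequent in core promoters (54.3%) than in regulatory ones (70.0%). TATAAA occurred in 10.8% of members' promoters and 6.32% of those of listed genes. These shares are descriptions of the windows and say nothing of binding.

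Transcript length differed between the classes. The median transcript was 2088 bases for core members and 2567 bases for regulatory members, by protein-coding transcripts of the GENCODE M21 basic set. Among all genes averaging 100 FPKM or more, the median log2 ratio was 0.32 for 612 genes with transcripts under 1 kb and -0.13 for 2118 genes with transcripts of 4 kb or more. The 10 core members under 1 kb had a median of -0.01 and an SD across genes of 1.14, and no regulatory member was that short. Between 2 and 4 kb the SD was 0.37 for 15 core members and 0.38 for 20 regulatory members, and between 1 and 2 kb it was 0.82 for 11 core members and 0.21 for 6 regulatory members. At 4 kb or more it was 0.40 for 9 core members and 0.30 for 6 regulatory members. Across the 77 members, which share both libraries and are not independent replicates, Pearson's r between the absolute log2 ratio and log2 transcript length was -0.35 (Spearman's rho -0.19), against 0.01 (rho 0.01) across 9533 genes above 0 in both libraries. The part of transcript length in the core and regulatory spread was not tested.

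**Figure D4:**
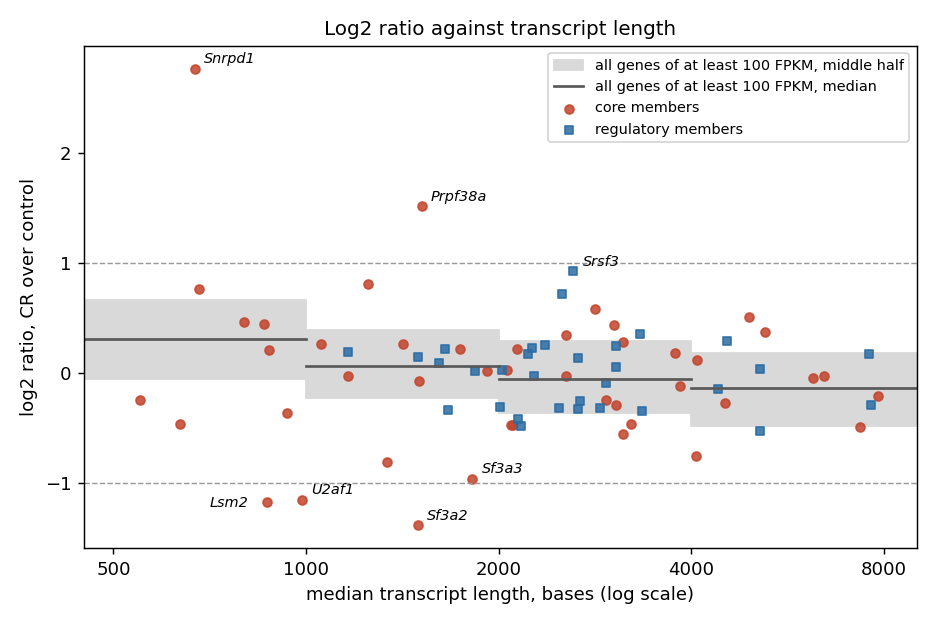
Log2 ratio (CR over control) of each member against its median transcript length in bases (log scale), with core members as circles and regulatory members as squares. Grey bands and lines give the interquartile range and median of all genes averaging 100 FPKM or more in 4 length classes, and dashed lines mark 2-fold. The members past 2-fold all have transcripts under 2 kb, and the grey median runs from 0.32 under 1 kb to -0.13 at 4 kb or more.

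By coordinates, 35 of the 77 members overlap another locus of the table, 6 of them a named gene, and 22 overlap a locus assigned to the opposite strand. Sf3a2, Lsm2 and U2af1, the members past 2-fold and lower in the CR library, are all among the 35, and Snrpd1 and Prpf38a are not. The unnamed locus that overlaps Lsm2 on the minus strand stood at 142 FPKM in the CR library and 77.1 FPKM in the control library, opposite in direction to Lsm2. The part of overlap in these values was not tested.

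Splicing genes outside the name rule were counted on 5 lists, 121 genes in all, of which 3 stood higher in the CR library by 2-fold or more, 6 stood lower by as much and 112 lay within 2-fold (median log2 ratio -0.08). That is 7.44% past 2-fold, against the 18.7% of all genes averaging 1 FPKM or more and 10.2% of those averaging 100 FPKM or more. The genes past 2-fold include 3 listed at 0 in a library, counted through the + 1 in the log2 ratio. Of 22 other snRNP proteins, 1 was at least 2-fold higher and 3 lower (18.2% past 2-fold, median -0.13). The U11/U12 particle recognises the rare class of introns removed by the minor spliceosome, and its 6 listed proteins, set apart after the values were seen, had 1 past 2-fold and higher, 2 lower and a median of -0.30. Snrnp48 of this particle stood at 244 FPKM in the CR library, against 100.2 FPKM in the control library. Pdcd7 and Rnpc3 of the same particle stood lower, Pdcd7 at 90.7 FPKM in CR and 271 FPKM in control muscle and Rnpc3 at 75.1 FPKM in CR and 203 FPKM in control muscle. Sart3, which helps U4 and U6 join again, stood at 76.6 FPKM in the CR library, against 209.7 FPKM in the control library. The other U11/U12 proteins, Snrnp25 (0.53 on the log2 scale), Snrnp35 (-0.50) and Zcrb1 (-0.10), lay within 2-fold on both sides of 0. Sf1, the branch point binding protein, was the most abundant of the list apart from Rbm17, and stood at 855 FPKM in CR and 819.7 FPKM in control muscle, and Rbm17 at 916 FPKM in CR and 789 FPKM in control muscle.

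The 28 helicases and catalytic-step proteins all lay within 2-fold (median -0.16). Ik, the most abundant, stood at 2074 FPKM in CR and 2749 FPKM in control muscle. Of 12 exon junction and cap-binding genes, 11 lay within 2-fold (8.33% past it), with Rnps1 the most abundant at 949 FPKM in CR and 905 FPKM in control muscle, and Magohb was listed at 0 FPKM in the CR library and 58.0 FPKM in the control library, so it has no fold. Its near-identical paralog Magoh stood at 437 FPKM in the CR library, against 248 FPKM in the control library, on the other side. All 14 SR kinases and SR-related genes lay within 2-fold, among them the muscle kinase Srpk3 at 357 FPKM in CR and 397 FPKM in control muscle and the most abundant of the list, Srrm1, at 1039.7 FPKM in CR and 1153 FPKM in control muscle. For these lists too, the share past 2-fold was 18.7% over all genes averaging 1 FPKM or more and 10.2% over those averaging 100 FPKM or more.

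Of 45 other tissue regulators of splicing, 41 lay within 2-fold, 2 were higher and 2 lower (8.89% past 2-fold, median -0.06). The share was 18.7% over all genes averaging 1 FPKM or more and 10.2% over those averaging 100 FPKM or more. Khdrbs3, a STAR family protein, stood higher at 174 FPKM in the CR library, against 77.0 FPKM in the control library, and Fubp1, which binds single-stranded DNA and U-rich RNA, lower at 225 FPKM in the CR library, against 564 FPKM in the control library. Nova2 was listed at 0 FPKM in the CR library and 21.5 FPKM in the control library, and Raver2 at 20.8 FPKM in the CR library and 0 FPKM in the control library, so neither has a fold. The muscle regulators Rbm20, Rbm24 and Rbfox1 were picked from the list after their values were seen, and all were lower but within 2-fold. They do not stand for the list, in which 28 of 45 genes were below 0 and 17 above. Others on it lay nearer 0 on the log2 scale, among them Rbfox2 (-0.15), Qk (-0.11), Rbm38 (-0.04) and Fxr1 (0.20). Rbm20, the regulator of titin splicing, stood at 212 FPKM in the CR library, against 406 FPKM in the control library, 1.91-fold lower, and Rbm24, which promotes muscle exons, at 816 FPKM in the CR library, against 1499 FPKM in the control library, 1.84-fold lower. Rbfox1, which binds UGCAUG beside muscle exons, stood at 759 FPKM in CR and 919.9 FPKM in control muscle. The most abundant of the list were Pcbp2, at 2343 FPKM in CR and 2344 FPKM in control muscle, and Fxr1, at 2359 FPKM in CR and 2059 FPKM in control muscle.

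Markers of cell types that muscle samples can hold differed by larger ratios than most splicing factors. Of 8 slow fibre genes 8 were past 2-fold and higher in the CR library, with summed levels of 132105 FPKM in CR and 15418 FPKM in control muscle. Of 10 white adipocyte markers 9 were at least 2-fold higher, with summed levels of 19358 FPKM in CR and 4191 FPKM in control muscle, and Adrb3 was listed at 0 in the control library. Tendon markers were at least 2-fold lower for 3 of 5, with summed levels of 999 FPKM in CR and 1691 FPKM in control muscle. At least 2-fold higher were 3 of 6 fibroblast, 2 of 7 endothelial, 1 of 4 macrophage and 1 of 3 erythroid markers. Of 6 nerve markers, 1 was that much higher and 1 lower. At any size, 6 of 6 fibroblast, 6 of 7 endothelial, 3 of 4 macrophage, 5 of 6 nerve and 3 of 3 erythroid markers were above 0. Of the 5 tendon markers 4 were below 0. Of all genes averaging 1 FPKM or more, 18.7% were past 2-fold in either direction. In nerve, S100b was listed at 0 in the control library and Sox10 in the CR library. None of the 6 listed skeletal muscle identity genes was past 2-fold, and their summed levels were 993217 FPKM in CR and 769862 FPKM in control muscle. The part of tissue makeup in the splicing factor values was not tested.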

How the data were processed

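TopHat 1.2.0, Cufflinks, Cuffdiff and mouse build mm9 are named in the submitters' processing notes, and the sources used here give no options, annotation or filters. Per the labels' protocols, 10 µg of total RNA was poly(A)-selected, fragmented to about 200 nt, randomly primed and read as 76-bp pairs. The deposited table gives FPKM per locus, 1 column per library, per the file headers. The lowest value is 1, and over 6 significant digits are carried by 98 of 101 control values between 1 and 2 but by 0 of 77 between 2 and 3, so 1 was taken to have been added and was subtracted. The values are estimates per length, not counts, and FPKM summed to 13608849 in the CR library and 12758512 in the control library, and the cause of so high a total was not tested, so levels are compared only within this table. Depth is unknown, so no counting interval is given.

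Loci with 1 symbol were kept (10543 genes, loci of a symbol summed) and 234 merged loci left out. The pseudocount was 1 FPKM and the filter a mean of at least 1 FPKM, and genes past 2-fold were counted. The members, lists, classes and named genes were chosen with earlier results of these data known. The rule names members past 2-fold, the 8 highest and 8 lowest ratios, the most abundant of each family, all Mbnl, Celf and U2af members, and, of the lists of other splicing genes, up to 4 past 2-fold in each direction and the most abundant; further members are named to complete a complex. Transcript lengths came from GENCODE M21 by symbol (96.5% of genes, all 77 members) and promoters from RefSeq; mm9 and GRCm38 coordinates were not converted. Alternatives were pseudocounts of 0.1 and 5 FPKM, filters, scalings, the largest locus per symbol, a strict core and 3 settings added after the values were seen. The counting was tested on simulated data. Python 3.11.15, numpy 2.4.6, pandas 2.3.3, scipy 1.17.1 and matplotlib 3.10.9 were used. The values of 1 member are not reported here by name.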

Additional observations from a re-analysis of the deposited data

How the results depend on the processing

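A change was read as a move of over 0.1 on the log2 scale, or of over 1.5 times for a count, since there are no replicates to give a spread. By that measure 89 of 97 recomputed summary values stayed with the main value and 8 did not. Family medians are not among the 97. With members averaging at least 300 FPKM, the Hnrnp median went from -0.14 to -0.29 and the Lsm median from -0.02 to -0.24. The U2af median went from -0.81 to -0.47 with members averaging at least 100 FPKM. The count of members at least 2-fold lower in the CR library (3) became 1 when only members averaging 100 FPKM were kept and 0 at 300 FPKM, as Lsm2 and U2af1 and then Sf3a2 lie under those levels. Among settings added after the values were seen, it became 1 with transcripts of at least 1 kb only and 0 with members that overlap no other locus. The count at least 2-fold higher (2) became 1 without Snrpd1 and 1 with transcripts of at least 1 kb only. With members that overlap no other locus, the median log2 ratio of core members was 0.11 and the ratio of summed core levels 1.09. Scaling both libraries to 1 total, leaving out the 50 most abundant genes, put the regulatory median at -0.04, changed the sign of 6 members with log2 ratios of at most 0.06 in size, and put 4 members at least 2-fold lower, Sf3a3 among them; centring on the median gene changed the sign of 4. Merged loci are given beside the members in the report. No paired analysis was possible because each group has 1 library, and leaving out a replicate was not possible for the same reason. Depth is unknown, which limits what can be said of low members such as Lsm7 and Lsm11.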

Other observations

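Genes that act on transcripts after or beside splicing were counted on 4 lists written after the values were seen, and are given as values. Of 20 cleavage and polyadenylation genes, 1 stood lower in the CR library by 2-fold or more, 0 stood higher by as much and 13 of 20 were below 0, with a median log2 ratio of -0.19. That is 5% past 2-fold, against 18.7% of all genes averaging 1 FPKM or more and 10.2% of those averaging 100 FPKM or more. The one past 2-fold was Cstf2, which binds the GU-rich element downstream of the poly(A) site, at 117 FPKM in the CR library, against 329 FPKM in the control library. Its autosomal paralog Cstf2t was on the other side, at 377 FPKM in the CR library, against 256 FPKM in the control library. Of the subunits Cpsf1 to Cpsf4, the scaffold Cpsf1 at 514 FPKM in CR and 981 FPKM in control muscle, Cpsf2 at 283 FPKM in CR and 422 FPKM in control muscle and the endonuclease Cpsf3 at 205 FPKM in CR and 369.9 FPKM in control muscle were lower but within 2-fold, and Cpsf4 was near equal at 458 FPKM in CR and 440.3 FPKM in control muscle.

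Decapping and deadenylation genes had a median log2 ratio of 0.01 over 26 genes, with 1 at least 2-fold lower (3.85% past 2-fold). That was the deadenylase Cnot6l, at 42.6 FPKM in the CR library, against 256 FPKM in the control library, while its paralog Cnot6 stood at 275 FPKM in the CR library, against 167 FPKM in the control library. The deadenylases Pan2 at 329 FPKM in CR and 179.9 FPKM in control muscle and Parn at 376 FPKM in CR and 219 FPKM in control muscle were higher but within 2-fold, and the deadenylase Cnot7 at 87.2 FPKM in CR and 165 FPKM in control muscle and the exonuclease Xrn1 at 99.0 FPKM in CR and 177 FPKM in control muscle were lower but within 2-fold. All 7 listed nonsense-mediated decay genes (median -0.08) and all 10 nuclear export genes (median -0.02) lay within 2-fold. Over all genes, 18.7% of those averaging 1 FPKM or more and 10.2% of those averaging 100 FPKM or more were past 2-fold. At such shares, 0 in lists of 7 and 10 genes says little of these genes.

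Of the minor spliceosome's own RNAs only Rnu11 and Rnu12 were looked up, and both were above 0 only in the CR library. Rnu11 stood at 276 FPKM in CR and 0 FPKM in control muscle, and Rnu12 at 201 FPKM in CR and 0 FPKM in control muscle. These RNAs are short and lack a poly(A) tail, and the libraries were made from poly(A) RNA.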
